A study of Mus musculus with 9 samples.

Results

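The genes for enzymes that place, remove or oxidise methyl groups on histones and on DNA were followed in whole mouse liver. They were taken by symbol from a table of 20325 genes: symbols that begin with Kdm, Setd, Suv39, Suv420, Ehmt, Ezh, Nsd, Whsc1, Dot1l, Smyd, Prmt or Dnmt, the numbered genes Mll1 to Mll5, and Tet1, Tet2 and Tet3. The rule found 63 rows. Nsdhl among them belongs to an enzyme of sterol synthesis and was set apart, which left 62 methylation genes: 31 lysine writers, 8 arginine writers, 16 lysine erasers, 4 DNA methyltransferases and 3 Tet dioxygenases. Of these, 58 had enough counts to be tested. The livers came from male C57BL/6J mice on chow, 3 in each of 3 groups. GF mice were germ-free, and GF+SCFA mice were germ-free with short-chain fatty acids in their water: acetate at 67.5 mM, propionate at 25.9 mM and butyrate at 40 mM. ConvD mice were raised germ-free and then received cecal contents of conventionally raised donors by a single gavage, so they carried a microbiota for part of adult life only. The growth protocol places the gavage at 15 weeks of age, 4 weeks of colonisation after it and dissection at 19 weeks, whereas the design text gives an age of 14 weeks. Animals were caged by colonisation status, so cage and group cannot be told apart. The labels call the livers of a group biological replicates without naming the animals. Each p-value therefore weighs a difference between groups against the spread between these samples, moderated over all genes.

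Histone methyltransferases transfer a methyl group from S-adenosylmethionine to a lysine or arginine, and the residue that carries it sets which reader proteins bind. Demethylases of the JmjC family take such groups off in reactions that consume 2-oxoglutarate and oxygen, whereas Kdm1 enzymes use a flavin. DNA methyltransferases write 5-methylcytosine, and the Tet enzymes oxidise it, also with 2-oxoglutarate and oxygen. The liver is the main site of S-adenosylmethionine synthesis, and butyrate, one of the supplied acids, is known as an inhibitor of histone deacetylases, a separate class of enzymes that is not examined here.

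The libraries held 18193071 to 21627696 expected counts, and 12037 genes passed the filter on low counts. Expression is given as CPM, the count scaled to a common TMM-normalised library size, when a gene is compared between livers, and as TPM, which also corrects for transcript length, when genes are compared with each other. A gene is called changed at a Benjamini-Hochberg adjusted p under 0.05 over all 12037 genes in edgeR's quasi-likelihood test, with n = 3 livers per group throughout. SE is an approximate standard error of the log2 fold change, its size divided by the square root of the test's F statistic. All 10 listed hepatocyte markers were present at a summed 116944 to 142008 CPM in every liver. Of 12 tested Kupffer cell and macrophage markers, 8 were higher in ConvD than in GF livers and 3 higher in ConvD than in GF+SCFA livers, with summed levels of 388 to 465, 414 to 511 and 541 to 785 CPM in GF, GF+SCFA and ConvD. Higher in ConvD than in GF and in GF+SCFA livers, in that order, were 4 and 5 of 7 tested markers of monocytes and neutrophils, 1 and 3 of 4 of B and plasma cells, 0 and 4 of 8 of stellate cells and 0 and 1 of 5 of cholangiocytes. For T and NK cells 0 of 6 were higher in either, and for erythroid cells 0 of 5. For sinusoidal endothelial cells 0 of 8 were higher in either, and Lyve1 was lower in ConvD than in GF livers (log2 fold change -0.85). Over all genes tested, 5.93% were called higher in ConvD than in GF livers and 9.44% higher than in GF+SCFA livers. Since whole liver was sequenced, fewer cells of a type and less RNA per cell cannot be told apart.

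Most of these genes were expressed at low to moderate levels, with a median of 4.59 TPM over the 58 tested genes, against 7.16 TPM over all genes tested. Setd3 is counted here in the lysine writer class by its symbol, although it methylates a histidine of actin. It was the most abundant gene of that class, with 41.2, 43.5 and 49.8 TPM in GF, 44.0, 42.6 and 43.3 TPM in GF+SCFA and 44.8, 44.3 and 43.9 TPM in ConvD livers. Ehmt2, which writes H3K9 mono- and dimethylation, followed with 16.0, 16.8 and 16.7 TPM in GF, 15.3, 16.0 and 14.0 TPM in GF+SCFA and 19.9, 20.4 and 16.5 TPM in ConvD livers. The gap between the pair exceeded the spread between livers, whereas Whsc1l1 (a mean of 15.4 TPM over the 9 livers) overlapped Ehmt2. Suv39h2, an H3K9 trimethylase best known from testis, was the lowest writer, with 0.21, 0.22 and 0.18 TPM in GF, 0.22, 0.22 and 0.10 TPM in GF+SCFA and 0.19, 0.18 and 0.10 TPM in ConvD livers, from 5 to 13 counts per liver.

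Among arginine writers, Prmt1, the main source of asymmetric dimethylarginine, had 10.4, 13.2 and 14.1 TPM in GF, 13.1, 11.3 and 12.2 TPM in GF+SCFA and 13.9, 15.2 and 11.9 TPM in ConvD livers. Prmt5, the main symmetric enzyme, had 7.04, 7.56 and 6.98 TPM, 8.06, 6.58 and 7.28 TPM and 8.14, 8.11 and 6.68 TPM in the same order. Prmt1 exceeded Prmt5 in every liver, and Prmt2 was lowest, with 0.57, 0.58 and 0.62 TPM in GF, 0.34, 0.46 and 0.49 TPM in GF+SCFA and 0.49, 0.89 and 0.49 TPM in ConvD livers. Among erasers, Kdm5c, an X-linked H3K4 demethylase, had 11.2, 12.0 and 12.2 TPM in GF, 11.6, 13.1 and 11.5 TPM in GF+SCFA and 13.4, 12.4 and 10.2 TPM in ConvD livers. Kdm2a, an H3K36 demethylase that binds CpG islands, had 9.77, 8.94 and 9.73 TPM, 9.29, 9.48 and 7.72 TPM and 9.82, 9.24 and 9.87 TPM in that order. The lowest Kdm5c value lay just above the highest Kdm2a value, and Kdm2b, the paralogue of Kdm2a, was the lowest tested eraser, with 2.17, 2.35 and 2.38 TPM in GF, 1.97, 1.83 and 2.03 TPM in GF+SCFA and 2.4, 2.45 and 2.15 TPM in ConvD livers.

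The DNA methylation enzymes sat low. Dnmt3a, a de novo methyltransferase, averaged 2.47 TPM over the 9 livers, Dnmt1, the maintenance enzyme, 2.34 TPM, and Dnmt3b, the other de novo enzyme, 0.278 TPM. Dnmt3b had 0.22, 0.21 and 0.17 TPM in GF, 0.40, 0.21 and 0.32 TPM in GF+SCFA and 0.30, 0.31 and 0.36 TPM in ConvD livers. Tet3 averaged 2.51 TPM and Tet2 1.19 TPM. Tet2 had 1.19, 0.89 and 1.29 TPM in GF, 1.19, 1.2 and 1.3 TPM in GF+SCFA and 1.41, 1.05 and 1.21 TPM in ConvD livers. The ranges of Dnmt3a, Dnmt1 and Tet3 overlapped each other, and those of Tet2 and Dnmt3b lay below. Genes that failed the filter were Dnmt3l, the catalytically inactive germ-cell cofactor of Dnmt3a, and Prmt8, a brain arginine methyltransferase, both without a count in any liver, Tet1 with 1 to 5 counts per liver, and the testis demethylase Kdm4d with 0 to 2.

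**Figure D1:**
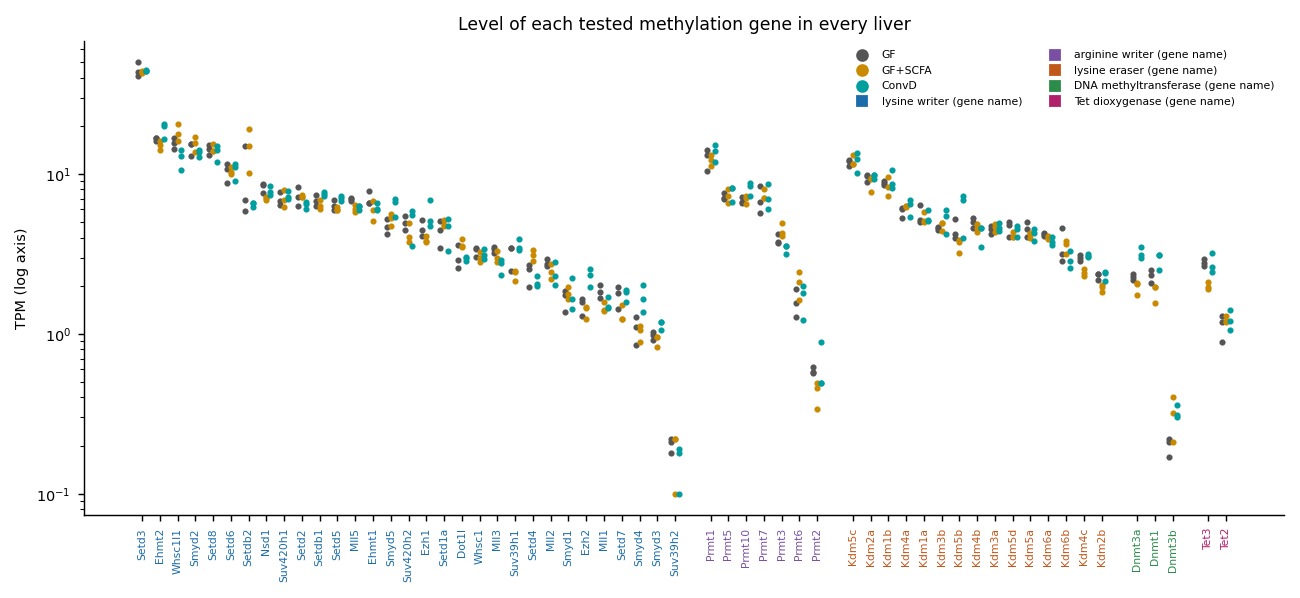
TPM (log axis) of each tested methylation gene in every liver, with genes ordered by mean TPM within their class and the points of GF, GF+SCFA and ConvD livers in grey, ochre and teal. Setd3 stands above 40 TPM in all 9 livers, whereas Suv39h2, Prmt2 and Dnmt3b stay below 1 TPM.

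ConvD livers differed from GF livers in few of these transcripts. Dnmt3a rose, and Mll3, Whsc1l1 and Mll5 fell. These 4 of 58 tested genes (6.90%) compare with 12.8% of all genes tested, in which 5.93% were called higher and 6.9% lower. Before adjustment, 16 of 58 had a p under 0.05, where all genes gave 28.6%. The median log2 fold change of the 58 genes was -0.04, against 0.00 for all genes, and 35 of 58 were below 0 (24 with upper-quartile factors or library totals). The 3 livers of a group stood apart from the 3 of the other for 17 genes, 5 higher and 12 lower in ConvD, whereas 31.6% of all genes stood apart, 15.7% higher and 15.9% lower. Which genes were called depended on the scaling. Upper-quartile factors and library totals moved the median of all genes by 0.06 and 0.08, and each shared 2 calls with the 4 above. Upper-quartile factors gave 3 higher calls (Dnmt3a, Smyd4, Smyd5) and 1 lower (Mll3), and library totals gave 4 higher (the same genes and Ezh2) and 1 lower (Mll3).

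In GF+SCFA against GF livers, edgeR called 0 of the 58 genes, where 0.0415% of all genes passed (5 genes; 0.00831% higher and 0.0332% lower). Before adjustment, 11 of 58 had a p under 0.05, against 12.3% of all genes, and DESeq2's Wald test called 1, Tet3. The groups stood apart for 2 genes higher and 9 lower in GF+SCFA, whereas 17.9% of all genes stood apart, 9.02% higher and 8.91% lower. The median log2 fold change was -0.05, against -0.01 for all genes. Without GF replicate 3 the test called Tet3 and Mll1, both lower in GF+SCFA (adjusted p = 0.0215 and 0.0413), and the calls among all genes went from 5 to 173.

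ConvD livers against GF+SCFA livers gave 13 calls among the 58 genes (22.4%), against 18.4% of all genes tested. Transcripts of Dnmt3a, Dnmt1, Tet3, Suv39h1, Ezh2, Ezh1 and Smyd4 were higher in ConvD, and those of Whsc1l1, Dot1l, Prmt3, Setd4, Setd2 and Mll3 were lower. The shares are close to those of all genes, 9.44% of which were called higher and 8.97% lower. Before adjustment, 20 of 58 had a p under 0.05, where all genes gave 33.1%. The groups stood apart for 12 genes in each direction, whereas 38% of all genes stood apart, 19% higher and 18.9% lower, and the median log2 fold change was -0.02. Library totals in place of TMM factors gave 9 higher calls and 1 lower, and upper-quartile factors 8 higher and 4 lower. Library totals ended the calls of Dot1l, Prmt3, Setd4, Setd2 and Mll3, upper-quartile factors those of Setd2 and Mll3, limma on log2 TPM those of Dot1l, Prmt3, Setd2 and Mll3, and DESeq2 those of Ezh1, Ezh2 and Smyd4. The count fell to 3 without ConvD replicate 1, to 4 without GF+SCFA replicate 3, to 5 and 6 without GF+SCFA replicates 1 and 2, and to 8 without ConvD replicate 2.

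**Figure D2:**
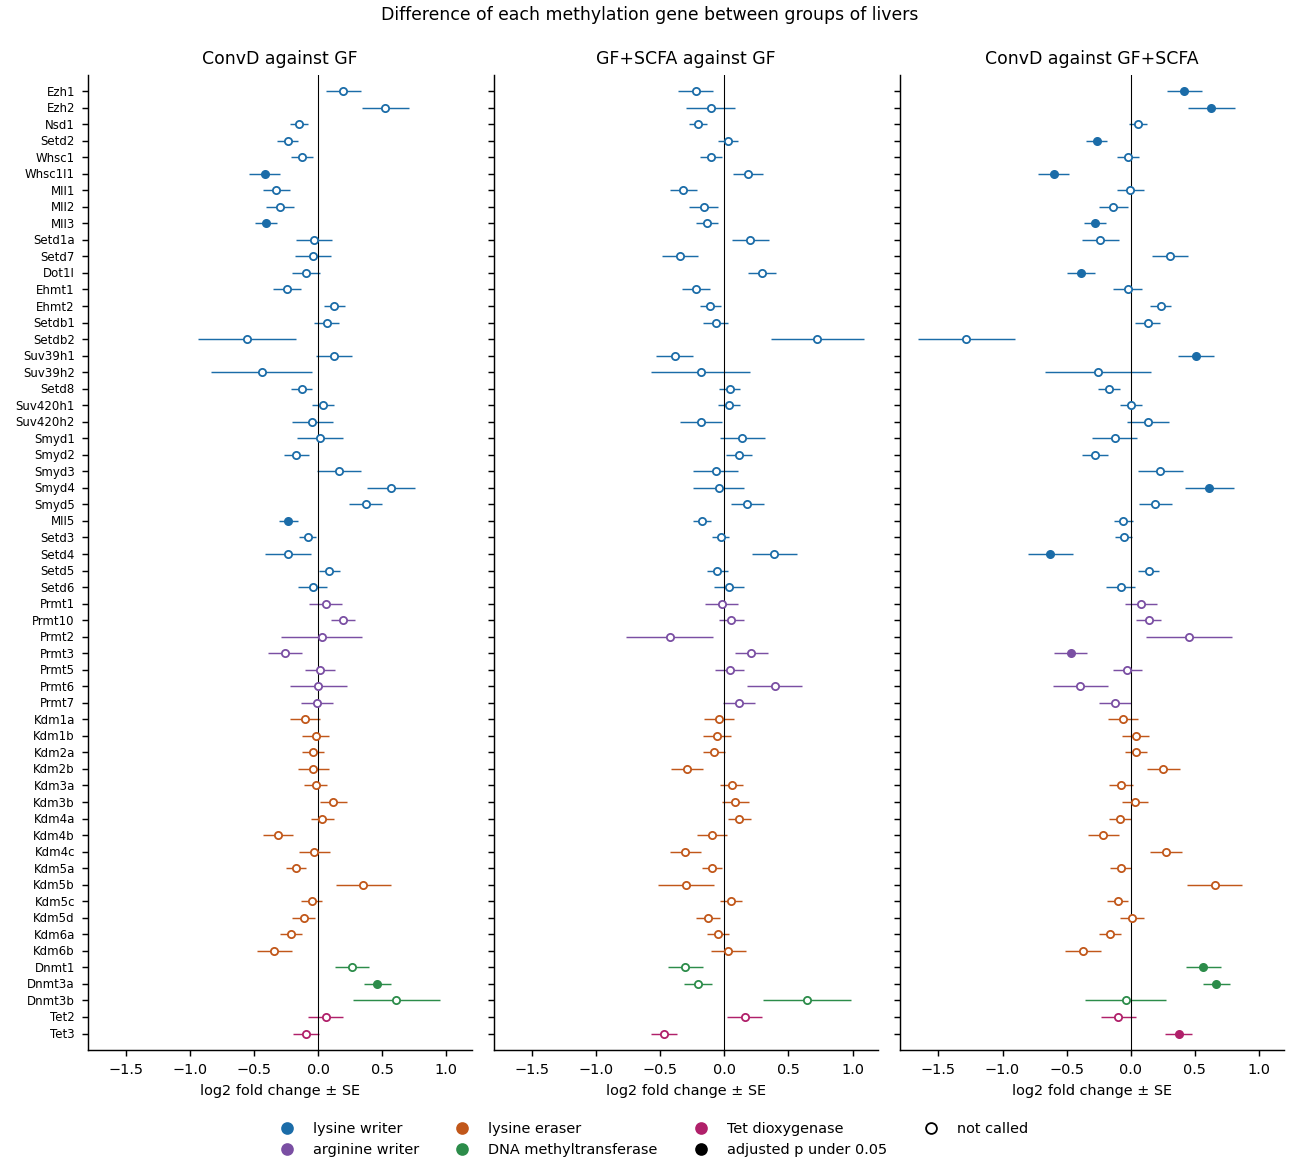
Log2 fold change with its SE for the 58 tested genes in the 3 comparisons, coloured by class, with filled points for an adjusted p under 0.05. The 3 panels share groups of livers, so they are not independent; the 15 lysine erasers carry no filled point in any panel, and the middle panel has none at all.

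Dnmt3a was the member with the smallest p in ConvD against GF+SCFA livers and the only one called higher in ConvD than in GF livers. Its level was 13.5, 15.8 and 13.0 CPM in the GF livers, 10.7, 13.2 and 12.8 CPM in the GF+SCFA livers and 20.1, 18.3 and 19.8 CPM in the ConvD livers. Every ConvD liver exceeded every other liver. The difference was 1.38-fold against GF (log2 fold change 0.46, SE 0.10, adjusted p = 0.0121) and 1.59-fold against GF+SCFA (log2 fold change 0.67, SE 0.11, adjusted p = 0.000956). Both calls held with each of the 9 livers left out in turn (largest adjusted p = 0.0477 and 0.00556). GF+SCFA and GF livers overlapped (log2 fold change -0.21, adjusted p = 0.458).

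Dnmt1 copies methylation onto the new strand after replication. Its level was 8.85, 8.56 and 6.66 CPM in the GF livers, 7.09, 6.75 and 5.60 CPM in the GF+SCFA livers and 9.70, 10.3 and 8.76 CPM in the ConvD livers. ConvD livers lay above all GF+SCFA livers and overlapped GF livers through GF replicate 1 alone, at 8.85 CPM. The difference was 1.48-fold against GF+SCFA (log2 fold change 0.57, SE 0.14, adjusted p = 0.0118) and did not pass against GF (log2 fold change 0.26, adjusted p = 0.215). The call was lost without GF+SCFA replicate 3 (adjusted p = 0.0590). Dnmt3b, at 9 to 20 counts per liver, passed in no comparison, with a log2 fold change of 0.61 (SE 0.34) in ConvD against GF and 0.65 (SE 0.34) in GF+SCFA against GF. The summed TPM of the DNA methyltransferases was 4.97, 4.88 and 4.41 in GF, 4.09, 4.25 and 3.93 in GF+SCFA and 6.87, 6.40 and 5.98 in ConvD livers, so the ConvD livers were the 3 highest and the GF+SCFA livers the 3 lowest.

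Tet3, the more abundant of the measured 5-methylcytosine dioxygenases, was at 20.4, 22.1 and 17.9 CPM in the GF livers, 14.1, 14.0 and 15.5 CPM in the GF+SCFA livers and 20.8, 16.8 and 18.8 CPM in the ConvD livers. The GF+SCFA livers were the 3 lowest, and the GF and ConvD livers overlapped. The ConvD level was 1.30-fold that of GF+SCFA (log2 fold change 0.38, SE 0.10, adjusted p = 0.0236). The call was lost in 3 of 9 fits that left out a liver. Against GF, the GF+SCFA livers had the smallest unadjusted p of any member in that comparison and did not pass after adjustment (log2 fold change -0.47, SE 0.10, adjusted p = 0.139, unadjusted p = 0.000486). DESeq2's Wald test gave an adjusted p of 0.0378 for the same difference. Tet2 did not pass in any comparison (adjusted p = 0.819, 0.679 and 0.659 in ConvD against GF, GF+SCFA against GF and ConvD against GF+SCFA).

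Some genes of proliferating cells were higher in ConvD livers than in each other group, whereas Dnmt1 was called against GF+SCFA alone. Of 12 tested markers of dividing cells, 3 were higher in ConvD than in GF+SCFA livers (Mki67, log2 fold change 1.26; Mcm3, 0.75; Mcm5, 0.65) and 3 higher than in GF livers (Cdk1, 0.83; Mcm3, 0.64; Mcm5, 0.77). In each comparison 9 of the 12 were not called. Over all genes tested, 9.44% were called higher in ConvD than in GF+SCFA livers and 5.93% higher than in GF livers. Their summed level was 44.6 to 45.9 CPM in GF, 44.9 to 49.0 CPM in GF+SCFA and 53.3 to 54.8 CPM in ConvD livers, and none of the 15 listed markers was at 0 in all livers. Dnmt1 and Dnmt3a were not called in GF+SCFA against GF livers (edgeR adjusted p = 0.398 and 0.458). Summed marker levels were lowest in the GF+SCFA livers for stellate cells (271 to 299.8 CPM in GF, 227 to 264 CPM in GF+SCFA and 290 to 298 CPM in ConvD). The same held for cholangiocytes (41.8 to 47.7, 24.7 to 29.3 and 40.5 to 62.8 CPM in the same order). The part of dividing, Kupffer, stellate and bile duct cells in the differences of Dnmt1, Dnmt3a, Tet3, Ezh2 and Suv39h1 was not tested.

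The start regions of a few called genes are shown because members that differed in the same direction raise the question of whether they share simple promoter letters. RefSeq windows of build GRCm38.p6 were matched for 52 of the 62 genes and for 12 of the 14 called in any comparison (Whsc1l1 and Mll5 had no entry). Each line gives the 250 bases before a start, 5′ to 3′ on the gene's strand, and capitals mark the GC box (GGGCGG) or the CCAAT box (CCAAT), each searched on both strands, so that a match on the other strand reads CCGCCC or ATTGG. The first pair was higher in ConvD than in GF+SCFA livers, and the second pair lower.
Dnmt3a: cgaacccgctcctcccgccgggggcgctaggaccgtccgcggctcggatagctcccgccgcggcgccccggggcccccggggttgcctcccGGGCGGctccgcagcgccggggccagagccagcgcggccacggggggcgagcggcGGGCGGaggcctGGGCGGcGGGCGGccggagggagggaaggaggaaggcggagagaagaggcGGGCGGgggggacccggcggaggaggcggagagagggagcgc
Suv39h1: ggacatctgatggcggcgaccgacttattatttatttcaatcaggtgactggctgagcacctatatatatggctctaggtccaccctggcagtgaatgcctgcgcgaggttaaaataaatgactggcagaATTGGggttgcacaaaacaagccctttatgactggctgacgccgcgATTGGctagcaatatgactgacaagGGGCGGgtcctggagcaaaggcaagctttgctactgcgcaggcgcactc
Mll3: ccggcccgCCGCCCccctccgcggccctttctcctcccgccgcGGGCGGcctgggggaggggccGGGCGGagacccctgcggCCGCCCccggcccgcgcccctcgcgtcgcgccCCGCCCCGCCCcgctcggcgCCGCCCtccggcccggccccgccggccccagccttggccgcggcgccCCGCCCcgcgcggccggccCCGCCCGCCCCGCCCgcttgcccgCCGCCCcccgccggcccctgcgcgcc
Setd2: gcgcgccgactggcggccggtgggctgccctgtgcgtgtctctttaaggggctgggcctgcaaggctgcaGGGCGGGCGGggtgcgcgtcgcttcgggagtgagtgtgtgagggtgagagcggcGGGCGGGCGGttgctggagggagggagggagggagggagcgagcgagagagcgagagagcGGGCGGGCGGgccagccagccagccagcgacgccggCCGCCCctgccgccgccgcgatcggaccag
The windows lie at chr12:3806730-3806979 on the plus strand, chrX:8074761-8075010 on the minus strand, chr5:25498784-25499033 on the minus strand and chr9:110532347-110532596 on the plus strand, and hold no annotated exon base of their gene. For Dnmt3a and Suv39h1, which have 3 and 2 RefSeq starts, the windows printed are those without such a base. The other Dnmt3a windows hold 40 and 15 CpG dinucleotides and 4 and 1 GC boxes, and the other Suv39h1 window holds 25 CpG dinucleotides, 1 GC box and 0 CCAAT boxes. Those printed for Dnmt3a, Mll3 and Setd2 hold 38, 48 and 31 CpG dinucleotides and 5, 12 and 7 GC boxes, some of which overlap. That printed for Suv39h1 holds 11 CpG dinucleotides, 1 GC box and 2 CCAAT boxes. A window of this length held a median of 6 CpG dinucleotides over 32851 RefSeq starts, 32.74% of which had a GC box and 33.85% a CCAAT box. Of the 17 windows of the called genes, 12 had a GC box, 8 a CCAAT box, 2 an ETS motif (CCGGAAG; 6.907% of all windows), 2 an E-box (CACGTG; 6.021%), 0 an E2F motif (TTTCCCGC or TTTGGCGC; 1.3%) and 0 a cAMP response element (TGACGTCA; 1.546%). These 17 windows belong to 12 genes, and some windows of Dnmt3a overlap each other, so they are not independent. The shares among uncalled methylation genes and among all tested genes were not computed. The counts therefore do not compare called with uncalled genes. Letters of this kind were found in genes of both directions, and a match describes the window and not a bound site.

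Both catalytic subunits of Polycomb repressive complex 2, which write H3K27 methylation, were higher in ConvD than in GF+SCFA livers. Ezh2, the form of dividing cells, was at 2.88, 2.82 and 2.06 CPM in the GF livers, 2.61, 2.08 and 2.51 CPM in the GF+SCFA livers and 3.93, 3.22 and 3.96 CPM in the ConvD livers, from 41.9 to 81.0 counts per liver. All ConvD livers lay above the other 6. The difference was 1.55-fold against GF+SCFA (log2 fold change 0.63, SE 0.19, adjusted p = 0.0302) and 1.44-fold against GF without passing (log2 fold change 0.52, SE 0.18, adjusted p = 0.0727). Ezh1, the form of resting cells, was at 12.5, 14.9 and 10.4 CPM in the GF livers, 10.7, 11.1 and 10.5 CPM in the GF+SCFA livers and 16.9, 12.4 and 13.9 CPM in the ConvD livers. The ConvD livers stood above the GF+SCFA livers but overlapped GF, whose replicate 2 reached 14.9 CPM. The Ezh1 difference was 1.34-fold against GF+SCFA (log2 fold change 0.42, SE 0.14, adjusted p = 0.0474) and was lost in 6 of 9 fits that left out a liver, with an adjusted p of up to 0.204 without ConvD replicate 1. The Ezh2 call was lost in 5 of the 9. None of 9 tested partners of the complex, such as Eed and Suz12, was called by edgeR in any comparison, and 1 or 2 in each had an unadjusted p under 0.05. Over all genes, 12.8%, 0.0415% and 18.4% were called in ConvD against GF, GF+SCFA against GF and ConvD against GF+SCFA. Before adjustment these shares were 28.6%, 12.3% and 33.1%.

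Of the 6 H3K9 writers, Suv39h1, which writes trimethylation at heterochromatin, was at 5.11, 7.22 and 6.43 CPM in the GF livers, 5.10, 4.86 and 4.41 CPM in the GF+SCFA livers and 7.12, 6.44 and 6.91 CPM in the ConvD livers. GF+SCFA livers were the 3 lowest, but replicate 1 only just, at 5.102 CPM against 5.105 CPM in GF replicate 1. ConvD livers lay within the GF range. The ConvD level was 1.42-fold that of GF+SCFA (log2 fold change 0.51, SE 0.14, adjusted p = 0.0245). This call was lost in 4 of 9 fits that left out a liver, with an adjusted p of up to 0.0956 without GF+SCFA replicate 3. Against GF, the lower level in GF+SCFA did not pass (log2 fold change -0.39, SE 0.14, adjusted p = 0.324). Annotated exons of the antisense gene Gm14820 overlap 14.6% of the exon bases of Suv39h1, and the strand setting of the authors' counting is not given in the sources used here.

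Setdb2, another H3K9 trimethylase, had the largest fold change of any member and no call in the main fit, and was chosen after its values were seen. Its level was 11.7, 14.1 and 27.1 CPM in the GF livers, 30.3, 19.5 and 38.2 CPM in the GF+SCFA livers and 11.6, 11.7 and 12.9 CPM in the ConvD livers. All GF+SCFA livers exceeded all ConvD livers, while the GF livers ranged from the ConvD level to within the GF+SCFA range. The log2 fold change was -1.28 (SE 0.38, adjusted p = 0.0613) in ConvD against GF+SCFA and 0.73 (SE 0.37, adjusted p = 0.486) in GF+SCFA against GF. Its spread within groups was the widest of the members, with a pooled SD of 0.46 on the log2 CPM scale, at the 98.4th percentile of all genes, whereas the median over the members was 0.137, against 0.140 for all genes. DESeq2 and limma on log2 TPM called Setdb2 lower in ConvD than in GF+SCFA livers (adjusted p = 0.00830 and 0.0255). So did edgeR with these 2 groups alone (adjusted p = 0.0219), a replicate block (0.0176) or no robust step (0.0116). With a liver left out, edgeR called it without GF replicate 1, GF replicate 3 or GF+SCFA replicate 2 (adjusted p = 0.0484, 0.0121 and 0.0469). It was not called without any other liver, with other scaling factors or filters, or with length offsets. Ehmt2, Ehmt1, Setdb1 and Suv39h2 passed in no comparison. For Ehmt2, ConvD livers stood above GF+SCFA livers (log2 fold change 0.24, adjusted p = 0.0604).

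All 5 tested H3K4 writers had a log2 fold change below 0 in ConvD against GF livers (median -0.30), and Mll3 alone passed the test. The signs of Setd1a and Setd7, both near 0, turned with upper-quartile factors or library totals. Mll3 (now Kmt2c), which monomethylates H3K4 at enhancers, was at 38.5, 37.4 and 36.2 CPM in the GF livers, 32.3, 36.2 and 33.7 CPM in the GF+SCFA livers and 29.1, 24.8 and 30.6 CPM in the ConvD livers. All ConvD livers were below all others, and the GF+SCFA livers were below all GF livers by a narrow margin. The level fell by 0.41 on the log2 scale against GF (SE 0.09, adjusted p = 0.00843) and by 0.28 against GF+SCFA (SE 0.09, adjusted p = 0.0397). The first call held in all 9 fits that left out a liver, and the second was lost in 6.

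Mll1 (now Kmt2a), which keeps developmental genes active, was at 22.5, 20.7 and 16.8 CPM in the GF livers, 15.8, 16.8 and 15.4 CPM in the GF+SCFA livers and 16.8, 15.1 and 16.0 CPM in the ConvD livers. Both other groups lay below all GF livers, but GF replicate 3 only by a margin smaller than the printed digits. The log2 fold change was -0.33 in ConvD against GF (adjusted p = 0.0566) and -0.32 in GF+SCFA against GF (adjusted p = 0.270), neither of them called. Without GF replicate 3, Mll1 passed in both comparisons (adjusted p = 0.0116 and 0.0413). Mll2 (now Kmt2d), the partner of Mll3 at enhancers, had a log2 fold change of -0.30 in ConvD against GF (adjusted p = 0.0922). Setd1a, a promoter H3K4 trimethylase, and Setd7, a monomethylase with many non-histone substrates, passed in no comparison, nor did any of 12 tested partners of these complexes by edgeR (1 in each comparison at an unadjusted p under 0.05). All genes gave 12.8%, 0.0415% and 18.4% called in ConvD against GF, GF+SCFA against GF and ConvD against GF+SCFA, and 28.6%, 12.3% and 33.1% before adjustment. Mll5 (now Kmt2e), a SET-domain protein that binds trimethylated H3K4, was at 34.1, 33.7 and 31.4 CPM in the GF livers, 29.4, 30.2 and 28.3 CPM in the GF+SCFA livers and 27.3, 28.8 and 28.4 CPM in the ConvD livers. GF livers were the 3 highest, and the other groups overlapped. The difference between ConvD and GF was small (log2 fold change -0.23, SE 0.07, adjusted p = 0.0472) and was lost in 8 of 9 fits that left out a liver, with an adjusted p of up to 0.149 without ConvD replicate 1. Exons of Srpk2 on the other strand overlap 9.31% of those of Mll5.

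Long transcripts as a whole were lower in ConvD than in GF livers, and several of the members are long. The median member transcript was 4602 bases, against 2791 bases over all genes tested. Over all genes, the median log2 fold change of ConvD against GF went from 0.05 for transcripts under 2 kb to -0.16 for those of 8 to 12 kb and -0.28 for the 77 genes over 12 kb, 35.1% of which were called lower. The 4 tested members over 12 kb (Mll1, Mll2, Mll3, Nsd1) had a median of -0.31. In an alternative added after the data were seen, offsets took out the trend with length in each library. Then Dnmt3a alone was called in ConvD against GF (log2 fold change 0.61, adjusted p = 0.00156), whereas Mll3 was at -0.12 (adjusted p = 0.266), Mll5 at -0.12 (adjusted p = 0.287) and Whsc1l1 at -0.34 (adjusted p = 0.0932). In ConvD against GF+SCFA, where the median for genes over 12 kb was -0.16, 10 of the 13 calls held and those of Mll3 (adjusted p = 0.203), Setd2 (0.0685) and Ezh1 (0.0513) were lost. In GF+SCFA against GF the median went from 0.06 under 2 kb to -0.13 at 8 to 12 kb and -0.12 over 12 kb, where the 4 members had a median of -0.18. The cause of the trend was not tested.

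**Figure D3:**
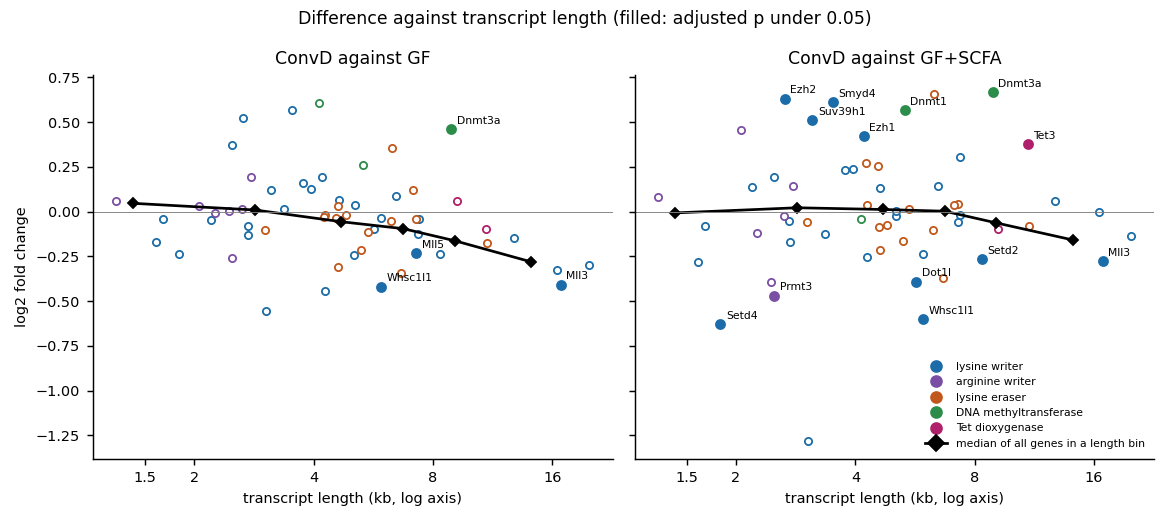
Log2 fold change of each tested methylation gene against its transcript length (kb, log axis), with the median of all genes in 6 length bins as black diamonds joined by a line. In ConvD against GF the line falls to -0.28 beyond 12 kb, close to where Mll3 lies, and Dnmt3a lies above it in both panels.

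Among the 4 H3K36 writers, Whsc1l1 (now Nsd3), which methylates H3K36, was called in both comparisons with ConvD livers. Its level was 61.5, 50.7 and 57.5 CPM in the GF livers, 57.5, 61.3 and 73.7 CPM in the GF+SCFA livers and 41.3, 48.8 and 36.7 CPM in the ConvD livers. All ConvD livers were below all livers of the other groups, which overlapped. The level was 1.34-fold lower in ConvD than in GF (log2 fold change -0.42, SE 0.12, adjusted p = 0.0388) and 1.52-fold lower than in GF+SCFA (log2 fold change -0.60, SE 0.12, adjusted p = 0.00524). The second call held in all 9 fits that left out a liver, and the first was lost in 5, with an adjusted p of up to 0.122 without GF replicate 1.

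Setd2, the H3K36 trimethylase that travels with RNA polymerase II, was at 40.2, 36.3 and 42.0 CPM in the GF livers, 41.8, 38.5 and 40.5 CPM in the GF+SCFA livers and 32.2, 31.7 and 36.6 CPM in the ConvD livers. ConvD livers lay below all GF+SCFA livers, and their highest value, 36.6 CPM, just passed the lowest GF value, 36.3 CPM. The difference from GF+SCFA passed (log2 fold change -0.26, SE 0.08, adjusted p = 0.0373) whereas that from GF did not (log2 fold change -0.24, SE 0.08, adjusted p = 0.0701). The call was lost in 5 of 9 fits that left out a liver, with an adjusted p of up to 0.128 without ConvD replicate 2. Nsd1, which writes H3K36 dimethylation, was at 74.5, 67.2 and 66.8 CPM in the GF livers, 59.9, 59.6 and 61.2 CPM in the GF+SCFA livers and 63.6, 59.8 and 64.7 CPM in the ConvD livers. GF livers were the 3 highest, without a call in GF+SCFA against GF (log2 fold change -0.21, SE 0.07, adjusted p = 0.270) or ConvD against GF (log2 fold change -0.15, adjusted p = 0.161). Whsc1 (now Nsd2), the other Nsd enzyme, passed in no comparison.

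Dot1l, the H3K79 methyltransferase of transcribed genes, was at 11.0, 10.1 and 12.4 CPM in the GF livers, 13.5, 12.8 and 14.9 CPM in the GF+SCFA livers and 9.65, 10.6 and 11.2 CPM in the ConvD livers. GF+SCFA livers were the 3 highest, and ConvD and GF livers overlapped. The ConvD level was 1.31-fold lower than that of GF+SCFA (log2 fold change -0.39, SE 0.11, adjusted p = 0.0231), a call lost in 4 of 9 fits that left out a liver. The higher level in GF+SCFA than in GF did not pass (log2 fold change 0.30, SE 0.11, adjusted p = 0.316). The H4K20 writers Setd8 (monomethylation), Suv420h1 and Suv420h2 (di- and trimethylation) passed in no comparison.

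Of the 5 Smyd genes, Smyd4 was called. Its level was 1.97, 2.62 and 2.72 CPM in the GF livers, 2.10, 2.38 and 2.62 CPM in the GF+SCFA livers and 4.14, 2.98 and 3.78 CPM in the ConvD livers, from 36.2 to 85.3 counts per liver. ConvD livers were the 3 highest, at 1.53-fold the GF+SCFA level (log2 fold change 0.61, SE 0.19, adjusted p = 0.0398) and 1.48-fold the GF level without passing (log2 fold change 0.57, SE 0.19, adjusted p = 0.0637). The call was lost in 5 of 9 fits that left out a liver. Smyd1, a muscle enzyme, Smyd2 and Smyd3, which also methylate proteins outside chromatin, and Smyd5 passed in no comparison.

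Setd4, a SET-domain methyltransferase, was at 3.20, 2.37 and 2.72 CPM in the GF livers, 3.97, 3.52 and 3.38 CPM in the GF+SCFA livers and 2.09, 2.29 and 2.66 CPM in the ConvD livers. GF+SCFA livers were the 3 highest and ConvD livers overlapped GF. The ConvD level was 1.55-fold lower than in GF+SCFA (log2 fold change -0.63, SE 0.18, adjusted p = 0.0249). This call was lost in 4 of 9 fits that left out a liver. Setd3, Setd5 and Setd6, a methylase of the NF-κB subunit RelA, passed in no comparison.

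Among the arginine writers, Prmt3, a cytosolic enzyme that methylates a ribosomal protein, was at 6.84, 6.33 and 5.54 CPM in the GF livers, 6.74, 6.75 and 8.12 CPM in the GF+SCFA livers and 5.14, 5.42 and 5.05 CPM in the ConvD livers. ConvD livers were the 3 lowest, and GF and GF+SCFA livers overlapped. The level was 1.38-fold lower than in GF+SCFA (log2 fold change -0.47, SE 0.13, adjusted p = 0.0240), with no call against GF (log2 fold change -0.26, SE 0.13, adjusted p = 0.217), and was lost in 4 of 9 fits that left out a liver. Prmt1, Prmt2, Prmt5, Prmt6, Prmt7 and Prmt10 (now Prmt9) passed in no comparison. For Prmt1 the log2 fold change was 0.06 (SE 0.13) in ConvD against GF and -0.02 (SE 0.13) in GF+SCFA against GF.

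**Figure D4:**
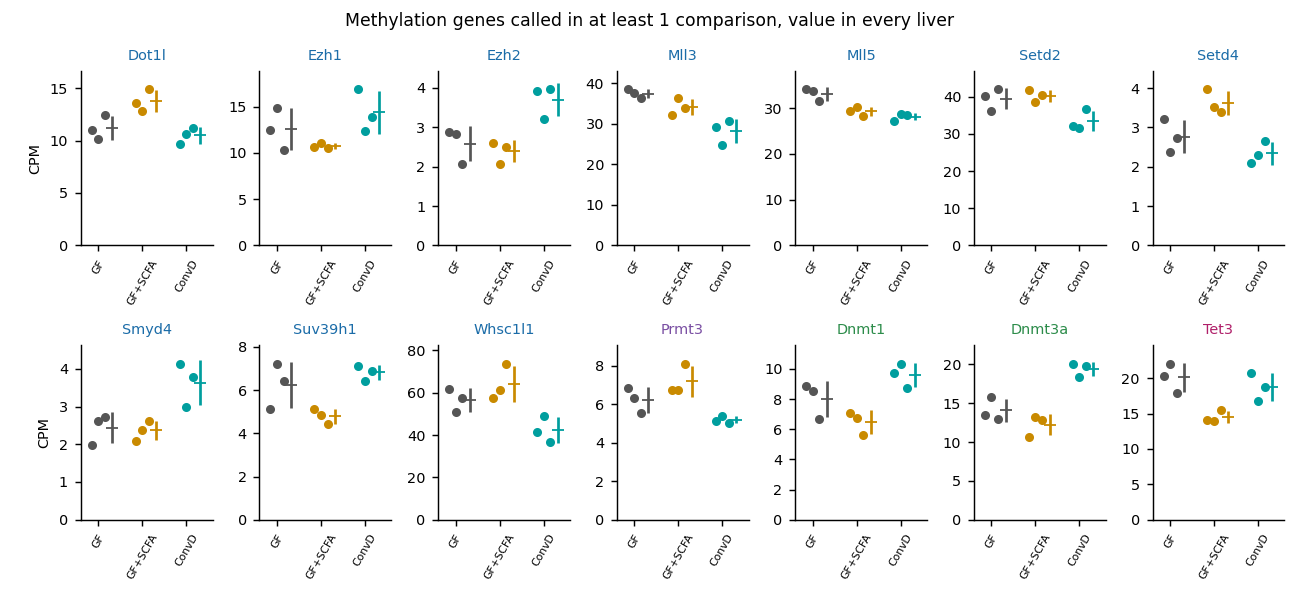
CPM in every liver (points) with the group mean and SD (bars) for the 14 methylation genes called in at least 1 comparison, each on its own axis from 0. For Dnmt3a, Ezh2 and Smyd4 the ConvD livers are the 3 highest, for Mll3, Whsc1l1 and Prmt3 the 3 lowest, and for Tet3 and Suv39h1 the GF+SCFA livers are the 3 lowest. For Suv39h1 the margin below the lowest GF liver is very narrow.

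Of the 15 tested lysine erasers, edgeR's main fit called 0 in each comparison. Among them, 4 had an unadjusted p under 0.05 in ConvD against GF, 2 in GF+SCFA against GF and 3 in ConvD against GF+SCFA. All genes gave 28.6%, 12.3% and 33.1% before adjustment, and 12.8%, 0.0415% and 18.4% called. DESeq2's Wald test called 1, Kdm5b, in the last of these (adjusted p = 0.00866), as did limma on log2 TPM (adjusted p = 0.0412), and neither called any in the others. With other edgeR settings or a liver left out, Kdm5b and Kdm6b were called in ConvD against GF+SCFA. Kdm5b passed there with library totals (adjusted p = 0.0356) and without the robust step (0.0352). With a liver left out, edgeR called Kdm4b or Kdm5b in ConvD against GF. Log2 fold changes of the erasers spanned -0.34 to 0.35 in ConvD against GF, with 12 of 15 below 0, and -0.30 to 0.12 in GF+SCFA against GF. In ConvD against GF+SCFA they spanned -0.37 to 0.66.

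The ends of that range were Kdm5b and Kdm6b, both chosen after their values were seen. Kdm5b, an H3K4 demethylase, was at 16.7, 22.8 and 16.1 CPM in the GF livers, 15.9, 13.0 and 16.2 CPM in the GF+SCFA livers and 27.3, 27.2 and 16.4 CPM in the ConvD livers. ConvD replicates 1 and 2 were high, while replicate 3 was near the GF and GF+SCFA livers, and the difference from GF+SCFA did not pass (log2 fold change 0.66, SE 0.22, adjusted p = 0.0679). Without ConvD replicate 3 it passed, with a log2 fold change of 0.86 (adjusted p = 0.00222). Kdm6b, the H3K27 demethylase induced in activated macrophages, was at 12.8, 14.5 and 18.6 CPM in the GF livers, 17.2, 15.7 and 14.0 CPM in the GF+SCFA livers and 11.3, 13.8 and 11.2 CPM in the ConvD livers. ConvD livers lay below all GF+SCFA livers without a call in the main fit (log2 fold change -0.37, SE 0.14, adjusted p = 0.0794). Kdm6b was called in edgeR's fit of these 2 groups alone and without GF replicate 3 (adjusted p = 0.0379 and 0.0329). The part of macrophages in this difference was not tested.

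The other erasers were the H3K4 demethylases Kdm1a and Kdm1b, the H3K36 demethylases Kdm2a and Kdm2b, the H3K9 demethylases Kdm3a and Kdm3b, Kdm4a, Kdm4b and Kdm4c of H3K9 and H3K36, Kdm5a, Kdm5c and Kdm5d of H3K4, and Kdm6a of H3K27. For Kdm5c the log2 fold change against GF was -0.05 (SE 0.08) in ConvD and 0.05 (SE 0.08) in GF+SCFA livers. In the same order, Kdm2a was at -0.04 (SE 0.08) and -0.08 (SE 0.08), and Kdm2b at -0.04 (SE 0.12) and -0.29 (SE 0.13). For 6 erasers the sign in ConvD against GF turned from negative to positive with upper-quartile factors or library totals: Kdm1b, Kdm2a, Kdm2b, Kdm3a, Kdm4c and Kdm5c. Nsdhl, the sterol enzyme that shares a prefix with Nsd1, was at 75.2 to 114 CPM and passed in no comparison.

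Genes around these enzymes were read from lists of related enzymes, complex partners, readers and substrate supply. Of 24 tested methylation enzymes whose symbols fall outside the rule, 2 were lower in ConvD than in GF livers, Jhdm1d (-0.38; a JmjC demethylase of H3K9 and H3K27) and Ash1l (-0.30; an H3K36 methyltransferase), and 0 were called by edgeR in ConvD against GF+SCFA (3 at an unadjusted p under 0.05). All genes gave 12.8% and 18.4% called in these comparisons, and 33.1% at an unadjusted p under 0.05 in the second. Of 16 partners of Kdm1a and of JmjC demethylases, 18.75% were called in each of these comparisons, counting 1 gene that is not reported here. This share compares with the same 12.8% and 18.4% of all genes. Mta3, a subunit of the NuRD complex, was higher in ConvD than in GF (0.69) and GF+SCFA livers (0.90), and Zmym3 was higher than in GF+SCFA (0.51). The nuclear receptor corepressor Ncor1 was lower in ConvD than in GF livers (-0.24). These values are log2 fold changes, as are those that follow.

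Among 30 readers of methylated histones and DNA, 2 were lower in ConvD than in GF livers, Phf20l1 (-0.39), a Tudor protein, and Cbx5 (-0.29), the HP1 protein that binds methylated H3K9. Against GF+SCFA, Cbx7 (0.60), a Polycomb chromodomain protein, and Zbtb4 (0.54), which binds methylated CpG, were higher in ConvD, and Ing3 (-0.66) and Phf20l1 (-0.34) were lower. The readers called were 6.67% and 13.3% of the 30, where all genes gave 12.8% and 18.4%. Of 13 genes of DNA demethylation and base excision, Ogt, which binds Tet enzymes, was lower in ConvD than in GF (-0.28), and Cxxc5 (0.49) and Gadd45a (0.90) were higher than in GF+SCFA, which is 7.69% and 15.4% of the 13 against the same shares of all genes.

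Several genes of methyl donor supply were lower in colonised livers. Of 24 genes of the methionine cycle, 4 were lower and 0 higher in ConvD than in GF livers: Ahcy (-0.59), which removes the product inhibitor S-adenosylhomocysteine, Mat1a (-0.57), the hepatocyte S-adenosylmethionine synthetase, and the choline-degrading enzymes Dmgdh (-0.40) and Sardh (-0.31). Against GF+SCFA, 8 were lower and 2 higher, and the smallest p-values were those of Ahcy (-0.65), Dmgdh (-0.49), Cbs (0.55; transsulfuration) and Mat2b (0.38; the regulatory subunit of the other synthetase). The shares of 16.7% and 41.7% of the 24 compare with the 12.8% and 18.4% of all genes given above. The medians of the list were -0.14 and -0.20, against 0.00 and 0.01 for all genes.

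Of 18 genes that make or use 2-oxoglutarate or related inhibitors of the dioxygenases, 3 were lower in ConvD than in GF (Idh3a, -0.69; Ogdh, -0.38; Gpt2, -0.35) and 4 lower than in GF+SCFA (Idh3a, -0.67; Gpt2, -0.49; Gpt, -0.30; Fh1, -0.55), with 0 higher in either. These shares, 16.7% and 22.2% of the 18, are near the 12.8% and 18.4% of all genes. In GF+SCFA against GF, edgeR called 0 genes of these lists, and 1 to 5 genes of each list had an unadjusted p under 0.05. All genes gave 0.0415% called in that comparison and 12.3% before adjustment. Of the 10 hepatocyte markers, 3 were lower and 1 higher in ConvD than in GF, and 5 lower and 1 higher than in GF+SCFA, and the part of hepatocyte abundance in the lower supply genes was not tested.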

How the data were processed

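Polyadenylated RNA of 9 livers was sequenced from TruSeq Stranded mRNA libraries, per the labels' protocols. The authors deposited 1 table per liver with expected counts and TPM, made with Bowtie2 and RSEM 1.2.23 on build mm9, per the submitters' processing notes and the file headers. An expected count need not be whole, because RSEM shares out multi-mapping reads. The TPM values were deposited by the authors scaled for effective length and depth, per the file headers. The strand setting of the counting is not given in the sources used here.

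Expected counts were rounded and analysed with edgeR 4.0.16 (R 4.3.3): filterByExpr by group with a minimum count of 10, TMM factors (0.935 to 1.06), and a robust quasi-likelihood fit of all 9 livers with the 3 groups as terms (6 residual degrees of freedom; biological coefficient of variation 10.6%). The test ran on all 12037 genes kept, and p-values were adjusted over all of them by the Benjamini-Hochberg method. The scripts were checked on simulated counts. Counts of livers within a group differed with a chi-square of 10.8 to 51.2 per degree of freedom, so no library was a copy of another of its group. Pairs from different groups were not compared in this way. The numbers in the sample titles do not pair the samples.

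Symbols were matched to current ones through RefSeq accessions, apart from Mll1, matched by its older symbol, and Setdb2 and Tet1, matched by symbol. Exon overlaps come from GENCODE M21 on GRCm38, a later build than that of the counts. The genes and lists were chosen with earlier results of these data known. Genes are given in every liver when called in any comparison, when among the 5 smallest p-values of a comparison, or when highest or lowest in TPM in their class, and of the related lists at most the 4 called genes with the smallest adjusted p per comparison are named, apart from 1 gene that is not reported here. Alternatives were other scaling factors, other filters, DESeq2 1.42.0, limma 3.58.1 on log2(TPM + 0.5) for genes at 0.5 TPM or more in 3 livers, fits of 2 groups, a replicate block, no robust step, each liver left out in turn, and the length offsets added later.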

Additional observations from a re-analysis of the deposited data

How the results depend on the processing

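The direction of every called member was the same under all alternatives run. In ConvD against GF, the 4 calls became 2 with limma on log2 TPM, 2 with the replicate number as a block and 1 with the length offsets, and they ranged from 2 to 5 with 1 liver left out. In GF+SCFA against GF, the 0 calls became 1 with DESeq2, and ranged from 0 to 2 with 1 liver left out. In ConvD against GF+SCFA, the 13 calls were 10 to 14 under the settings that left out no single liver, and ranged from 3 to 16 with 1 liver left out. Of the single genes, Dnmt3a kept both of its calls under every alternative and left-out liver, as did Whsc1l1 against GF+SCFA. Members called under an alternative alone were Ezh2, Kdm4b, Kdm5b, Mll1, Mll2, Setd2, Smyd4 and Smyd5 in ConvD against GF, Mll1 and Tet3 in GF+SCFA against GF, and Ehmt2, Kdm5b, Kdm6b and Setdb2 in ConvD against GF+SCFA. Apart from the fits with fewer samples or without a trend in length, the cause of these changes was not tested.

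The replicate numbers gave no sign of pairing: deviations from the group means correlated at -0.08 to 0.19 between livers of the same number in different groups (9 pairs) and at -0.14 to 0.14 between those of different numbers (18 pairs). With the block, 2 members were called in ConvD against GF, 0 in GF+SCFA against GF and 13 in ConvD against GF+SCFA. Counts of 36.2 to 85.3 per liver in Smyd4, 9 to 20 in Dnmt3b and 5 to 13 in Suv39h2 limit what could be detected for these genes.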
